A study of Mus musculus with 6 samples.

Results

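The genes described here encode OGT and the core of the SIN3 histone deacetylase complex, both of which bind the 5-methylcytosine oxidase TET1. They are Sin3a, Sin3b, Ogt, Hdac1, Hdac2, Sap30, Ing1, Ing2, Rbbp4 and Rbbp7. They were taken by name from the deposited count table, all 10 were found among its 48440 genes, and all 10 passed the filter on low counts that left 14664 genes for testing. Polyadenylated RNA had been sequenced from 6 clonal lines of male mouse induced pluripotent stem cells (iPSCs). Every clone came from the parental line iPSC34.3, whose strain label combines B6- Tet1tm1Kohx with B6;CBA-Tg(Pou5f1-EGFP)2Mnn/J and which carries GFP under the Pou5f1 promoter on 1 allele (genotype wt/wt;GFP/wt). The Tet1 knockout group holds clones 14, 30 and 33 (replicates 1 to 3), with the added genotype Tet1 Cas9 mut/mut. The non-targeted group holds clones 49, 51 and 52 (replicates 1 to 3), with no such mutation. The labels give both groups the same history: 14 passages, transfection with Cas9 protein complexed to a guide against Tet1 together with a donor oligonucleotide, exposure for 12 h to a homology-directed repair enhancer, 4 more passages and expansion on mouse embryonic fibroblast feeders, from which the iPSCs were taken off. What set the non-targeted clones apart during the treatment is not stated. Each library is 1 clone of the same line, so p-values weigh differences against the variation among clones from a single source.

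SIN3A and SIN3B are scaffold proteins without enzymatic activity. They hold the histone deacetylases HDAC1 and HDAC2, the histone-binding WD-repeat proteins RBBP4 and RBBP7, SAP30, and an ING protein whose PHD finger binds trimethylated lysine on histone H3, and they are brought to promoters by DNA-binding repressors. OGT is the enzyme that attaches N-acetylglucosamine to serines and threonines of nuclear and cytoplasmic proteins, and its mark is removed by OGA, listed in the table under the older symbol Mgea5. In mouse embryonic stem cells TET1 is known to bind CpG-rich promoters, where it is found with SIN3A and with OGT.

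Total counts ranged from 11937909 to 16189554 per library, and the members had between 181 counts (Ing2) and 9233 counts (Rbbp4) in a library. Tet1 itself had 365, 231 and 288 CPM (read counts scaled to library size) in knockout replicates 1 to 3, below the 966 to 1158 CPM of the non-targeted clones (log2 fold change -1.84 ± 0.16, edgeR adjusted p = 0.0703, DESeq2 adjusted p = 9.06e-20), so the libraries match their labels. Of the related oxidases, Tet2 had 250, 108 and 62.3 CPM against 280, 220 and 249 CPM (edgeR adjusted p = 0.274, DESeq2 adjusted p = 0.366) and Tet3 23.3, 36.8 and 57.0 CPM against 14.0, 20.5 and 16.7 CPM, a difference that DESeq2 called (adjusted p = 0.00635) and edgeR did not (adjusted p = 0.120). The 10 pluripotency markers listed were detected in all 6 libraries, with sums of 4359, 3001 and 2452 CPM in replicates 1 to 3 of the knockout, beside 3933 to 4455 CPM in the non-targeted clones. All 10 had a log2 fold change below 0, but their patterns over the clones differed. Tdgf1 was practically unchanged (-0.004 ± 0.169), with 873, 590 and 552 CPM in the knockout against 631 to 727 CPM. Klf4 had 622, 221 and 122 CPM against 438 to 593 CPM. Pou5f1 had 684, 692 and 675 CPM against 743.5 to 849 CPM, and Utf1 452, 410 and 464 CPM against 462 to 541 CPM. The 15 fibroblast markers summed to 321, 366 and 783 CPM across the knockout clones, beside 186 to 247 CPM across the non-targeted ones. None of the 15 was at 0 over the 6 libraries, and their sum was at most 0.0783% of the counts. Of 8 primitive endoderm markers, summing to 360.0, 390.1 and 547 CPM against 271 to 342 CPM, Sox17 was at 0 in 1 non-targeted library. In the sums of these markers, knockout replicate 1 thus lay nearest the non-targeted clones and replicate 3 farthest from them. Single markers did not all follow this order. Within the endoderm list, Col4a1 had 109, 83.7 and 153 CPM against 54.9 to 64.6 CPM. Most of the endoderm sum was Lamb1, with 237, 281 and 346 CPM against 197 to 275 CPM, which overlapped between the groups. The part that fewer pluripotent cells or more feeder RNA may have in any result on the members was not tested, and in such bulk RNA fewer cells of a type cannot be told apart from less RNA per cell.

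Of the 10 members, 8 had a log2 fold change below 0 in the knockout and 2 (Sin3b and Rbbp7) a higher one, where 49.7% of all tested genes were below 0. In the main test, edgeR's quasi-likelihood test with p adjusted over all tested genes, 0 members passed an adjusted p of 0.05, where 0.0% of all genes did. At an unadjusted p under 0.05 there were 3 members, all lower (Sin3a, Ing1 and Hdac1), where 24.8% of all genes in either direction and 10.8% in the lower direction reached it. DESeq2 called 2 members, Sin3a and Ing1, both as lower, beside 9.12% of all genes called, 3.35% as lower and 5.77% as higher. limma voom called 0 members and 0.00682% of all genes. Sin3a, Ing1, Hdac1 and Rbbp4 had their highest knockout clone below their lowest non-targeted clone. That is 4 of 10 members, beside 29.5% of all tested genes without overlap in either direction and 14.7% in the lower direction. None of 10 was higher throughout, beside 14.8% of all genes. The median log2 fold change (knockout minus non-targeted) was -0.16 over the members and 0.00 over all tested genes.

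**Figure D1:**
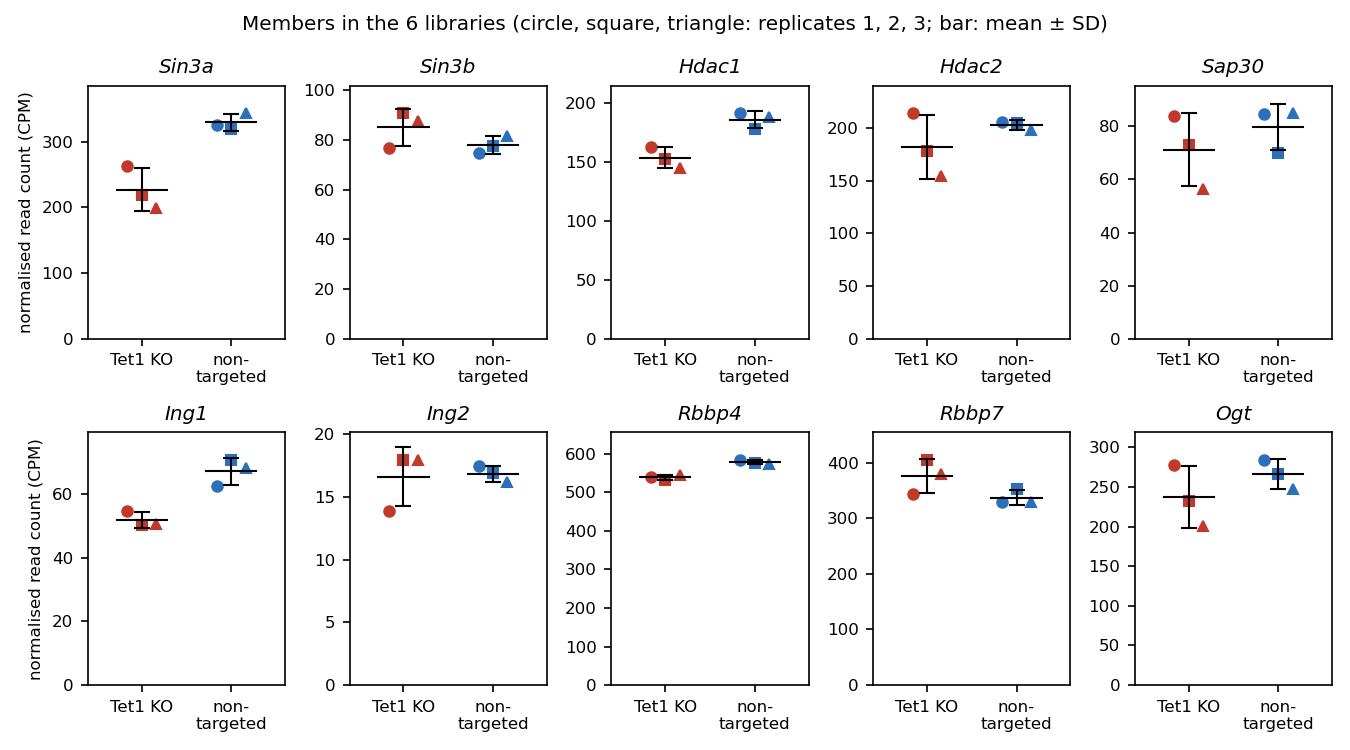
Normalised read counts (CPM, vertical axes from 0) of the 10 members in the 3 Tet1 knockout (red) and 3 non-targeted (blue) libraries; circles, squares and triangles are replicates 1, 2 and 3, and bars give the mean ± SD. Sin3a, Hdac1, Ing1 and Rbbp4 show no overlap between the groups, and the remaining 6 genes overlap.

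The scaffolds are described first. Sin3a (ENSMUSG00000042557.14, chromosome 9, 57072040 to 57128366, plus strand, GRCm38) had 263, 219 and 199.8 CPM in replicates 1 to 3 of the knockout, beside 325, 320.1 and 344 CPM in the non-targeted replicates. Every knockout clone was therefore below every non-targeted clone, replicate 1 the least and replicate 3 the most. The knockout mean was 68.9% of the non-targeted mean, with a log2 fold change of -0.54 ± 0.11 (SE), which DESeq2 called (adjusted p = 0.00343) and edgeR did not (adjusted p = 0.106). The DESeq2 call was lost without knockout replicate 2 (adjusted p = 0.0602), non-targeted replicate 1 (0.0658) or non-targeted replicate 3 (0.112), and edgeR passed it without knockout replicate 1 (adjusted p = 0.00105) or with no filter on low counts (adjusted p = 0.0466). Over all 18 alternative fits the fold change stayed between -0.66 and -0.45. The 20 tested genes around Sin3a on chromosome 9 had median differences from the non-targeted mean of -0.02, -0.11 and -0.10 on the log2 scale in the knockout clones, against -0.33, -0.59 and -0.72 for Sin3a itself.

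Sin3b (ENSMUSG00000031622.15, chromosome 8, 72723288 to 72758203, plus strand), the related scaffold, had 76.8, 90.8 and 87.7 CPM across the knockout clones, beside 74.6, 77.7 and 81.7 CPM across the non-targeted ones. Replicates 2 and 3 of the knockout were above all non-targeted clones, while replicate 1 lay among them. The log2 fold change was 0.13 ± 0.09 (edgeR adjusted p = 0.415). Because the scaffolds are alternatives to each other in the complex, their ratio within a library was compared, which does not depend on how libraries are scaled. There were 3.42, 2.41 and 2.28 reads of Sin3a per read of Sin3b in the knockout clones and 4.35, 4.12 and 4.21 in the non-targeted clones. The log2 ratio was 1.41 ± 0.32 in the knockout and 2.08 ± 0.04 in the non-targeted clones (SD, n = 3), lower in 3 of 3 knockout clones, a difference of -0.67. The exact two-sided permutation test gave p = 0.1, the smallest that 3 against 3 clones allow, and 0.3 after Benjamini-Hochberg adjustment over the 6 ratios compared. In 2 of these 6 ratios the groups did not overlap. The share of ratios without overlap over all gene pairs was not computed, and among single tested genes it was 29.5%.

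The 250 bases before the start sites of these scaffold genes are shown because the ratio of their reads differed between the groups without overlap. The pair was thus chosen by its result. TET1 is known to bind CpG-rich promoters, but its binding was not measured in these libraries. The sequences are from RefSeq (GRCm38.p6), which lists 2 start sites for Sin3a and 1 for Sin3b, and are written 5′ to 3′ on the plus strand with CG dinucleotides in capitals. The bases just after the second Sin3a start were found in a GENCODE M21 transcript of that gene. Those after the first Sin3a start and the Sin3b start were not found in one.
Sin3a, first start (chr9:57071790-57072039): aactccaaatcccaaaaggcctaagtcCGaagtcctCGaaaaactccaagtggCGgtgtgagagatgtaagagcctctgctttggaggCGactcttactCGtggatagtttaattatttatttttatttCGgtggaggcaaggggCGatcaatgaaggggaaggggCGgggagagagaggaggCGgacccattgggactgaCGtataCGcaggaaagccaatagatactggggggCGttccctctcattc
Sin3a, second start (chr9:57076126-57076375): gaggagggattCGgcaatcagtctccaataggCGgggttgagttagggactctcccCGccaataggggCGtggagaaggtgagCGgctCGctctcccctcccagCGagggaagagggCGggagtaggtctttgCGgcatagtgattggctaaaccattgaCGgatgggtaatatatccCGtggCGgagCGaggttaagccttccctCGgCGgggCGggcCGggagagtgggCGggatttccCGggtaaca
Sin3b (chr8:72723020-72723269): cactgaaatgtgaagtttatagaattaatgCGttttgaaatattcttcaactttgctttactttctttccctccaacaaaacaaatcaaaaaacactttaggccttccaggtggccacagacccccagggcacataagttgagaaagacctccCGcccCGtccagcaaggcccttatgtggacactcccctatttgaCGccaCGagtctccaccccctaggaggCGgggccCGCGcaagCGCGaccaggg
The first Sin3a window holds 12 CG, the second 19 and the Sin3b window 10, where the median over 32817 such windows is 6. As many or more are found in 33.5%, 19.7% and 37.8% of all windows. The letters CCAAT, searched on both strands, occur 2 and 3 times in the Sin3a windows and 0 times in that of Sin3b, and 33.8% of all windows hold them. The letters GGGCGG occur 1, 3 and 1 times (32.7% of all windows), and CACGTG, the site of the MAX family of SIN3 recruiters, in none of these windows (6.02% of all windows). Counts per gene do not say which start site the reads came from.

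**Figure D2:**
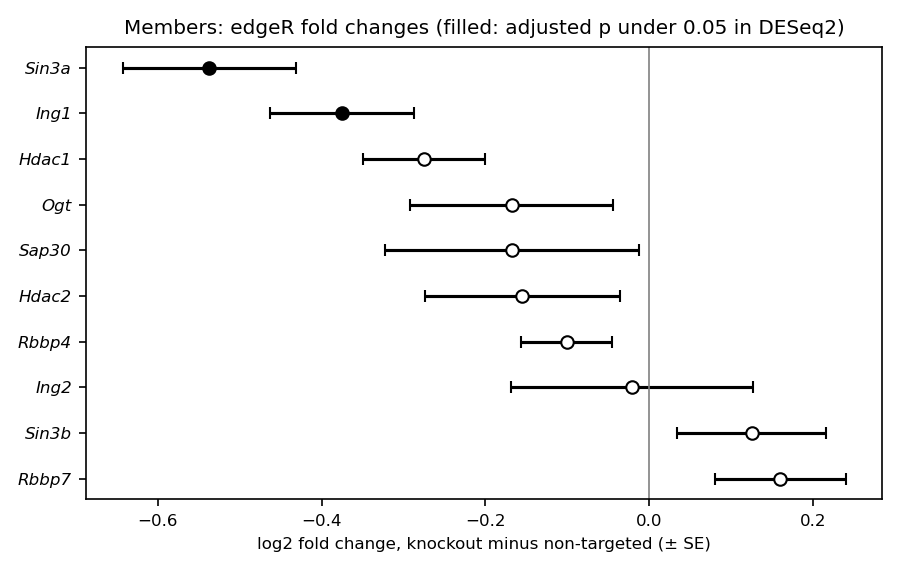
Log2 fold change of each member (knockout minus non-targeted, horizontal axis) with its SE, from edgeR's fit over 14664 genes; filled points passed an adjusted p of 0.05 in DESeq2, and none did in edgeR. Sin3a (-0.54) and Ing1 (-0.38) are filled, and Rbbp7 (0.16) and Sin3b (0.13) lie above 0.

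The deacetylases had smaller fold changes. Hdac1 (ENSMUSG00000028800.15, chromosome 4, 129516104 to 129542713, minus strand) had 163, 153.0 and 145 CPM in replicates 1 to 3 of the knockout, beside 192, 178 and 189 CPM in the non-targeted replicates, so the groups did not overlap. Its log2 fold change was -0.28 ± 0.08 (edgeR adjusted p = 0.122, DESeq2 adjusted p = 0.0588). A processed pseudogene, Gm10093, matches 1444 of the 2038 bases of the longest Hdac1 transcript at 99.4% identity, so reads of this gene can be lost or misplaced. Gm10093 had 24.1, 21.7 and 22.5 CPM against 30.5 to 31.3 CPM, and the sum of both genes was 187, 175 and 168 CPM against 209 to 223 CPM, again without overlap. Another processed pseudogene of Hdac1, AC125456.1, matches it at 96.3% identity over 1450 bases. It has no deposited counts, so its reads are not in this sum. The 20 tested genes around Hdac1 were slightly lower too. Their medians were -0.08, -0.09 and -0.08 on the log2 scale in the knockout clones, against -0.19, -0.28 and -0.36 for Hdac1. Hdac2 (ENSMUSG00000019777.16, chromosome 10, 36974544 to 37001889, plus strand) had 215, 178 and 154 CPM across the knockout clones, beside 206, 205 and 198 CPM across the non-targeted ones. Here replicate 1 of the knockout was the highest library of all and replicate 3 the lowest. The log2 fold change of Hdac2 was -0.16 ± 0.12 (edgeR adjusted p = 0.438), and it was -0.05 without knockout replicate 3 and -0.29 without replicate 1. The log2 ratio of Hdac1 to Hdac2 was -0.24 ± 0.16 against -0.13 ± 0.07 (SD, n = 3; exact permutation p = 0.4; adjusted p = 0.4), a difference of -0.11 ± 0.10 (SE), with overlapping groups. That difference was -0.03 without knockout replicate 1 and -0.18 without replicate 3.

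Among the smaller subunits, Ing1 had the largest fold change. Ing1 (ENSMUSG00000045969.8, chromosome 8, 11555571 to 11563251, plus strand), a PHD-finger subunit, had 54.6, 50.2 and 50.6 CPM across the knockout clones, beside 62.5, 70.8 and 68.3 CPM across the non-targeted ones. The 3 knockout clones were close to each other and all below the non-targeted ones. The log2 fold change was -0.38 ± 0.09 (DESeq2 adjusted p = 0.0237, edgeR adjusted p = 0.110). The DESeq2 call remained only without knockout replicate 1 (adjusted p = 0.00254), and leaving out any other library raised it to between 0.0864 and 0.236. The 20 tested genes around Ing1 had medians of 0.03, -0.01 and 0.04 in the knockout clones. Its relative Ing2 (ENSMUSG00000063049.4, chromosome 8, 47667178 to 47675556, minus strand) was the least abundant member, at 13.9, 18.0 and 18.0 CPM against 17.4, 16.9 and 16.2 CPM. Ing2 had no steady direction, with a log2 fold change of -0.02 ± 0.15 that became 0.09 without knockout replicate 1. The log2 ratio of Ing1 to Ing2 was 1.65 ± 0.28 against 1.99 ± 0.13 (SD, n = 3; exact permutation p = 0.2; adjusted p = 0.4), a difference of -0.34 ± 0.18 (SE), and knockout replicate 1 lay among the non-targeted clones. That difference was -0.505 without knockout replicate 1, -0.26 without replicate 2 and -0.265 without replicate 3.

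Sap30 (ENSMUSG00000031609.3, chromosome 8, 57482707 to 57487860, minus strand), which bridges the scaffold and its partners, had 83.9, 73.1 and 56.5 CPM across the knockout clones, beside 84.7, 69.9 and 85.1 CPM across the non-targeted ones. Its groups overlapped, and knockout replicate 3 was the lowest library (log2 fold change -0.17 ± 0.16, edgeR adjusted p = 0.525). Without replicate 3 the value was -0.02. The ratio of Sap30 to its relative Sap30l overlapped between the groups as well (log2 difference -0.27 ± 0.23 SE; exact permutation p = 0.4; adjusted p = 0.4). The difference was -0.07 without knockout replicate 3 and -0.44 without replicate 1.

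The genes of the histone-binding proteins had fold changes of opposite sign. Rbbp4 (ENSMUSG00000057236.10, chromosome 4, 129307100 to 129335370, minus strand), the member with the most reads, had 541, 532 and 545 CPM across the knockout clones, beside 586, 576 and 575 CPM across the non-targeted ones. This small difference, 93.2% of the non-targeted mean, came without overlap, and the clones of each group lay close together (log2 fold change -0.10 ± 0.06, edgeR adjusted p = 0.290). The 20 genes around Rbbp4, among them Hdac1, were lower by a like amount, with medians of -0.14, -0.17 and -0.18 in the knockout clones against -0.10, -0.12 and -0.09 for Rbbp4. Stretches of 799 and 521 bases of Rbbp4 are matched at 100% identity by Gm26722 and Sync. The search took either strand and any position, so genes that overlap in the same DNA are not told apart from copies. Gm26722 and Sync had 23 and 112 counts over all libraries, beside 45825 for Rbbp4. Rbbp7 (ENSMUSG00000031353.13, X chromosome, 162760402 to 162779092, plus strand) had 344, 405 and 379 CPM against 329, 352 and 329 CPM. Knockout replicates 2 and 3 were above all non-targeted clones and replicate 1 was within their range (log2 fold change 0.16 ± 0.08, edgeR adjusted p = 0.254). A pseudogene of Rbbp7, Gm6382, matches it at 97.1% identity over 942 bases, and with its reads added the groups still overlapped. The number of Rbbp4 reads per Rbbp7 read was 1.57, 1.31 and 1.44 in the knockout and 1.78, 1.63 and 1.75 in the non-targeted clones, lower in 3 of 3 knockout clones. On the log2 scale that is 0.52 ± 0.13 against 0.78 ± 0.06 (SD, n = 3; exact permutation p = 0.1, the smallest possible; adjusted p = 0.3).

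As with the scaffolds, the 250 bases before the RefSeq start sites of this pair are shown for comparison, on the strand of each gene with CG in capitals. The bases just after the start were found in a GENCODE M21 transcript of the gene for Rbbp4 but not for Rbbp7.
Rbbp4 (chr4:129335371-129335620, minus strand): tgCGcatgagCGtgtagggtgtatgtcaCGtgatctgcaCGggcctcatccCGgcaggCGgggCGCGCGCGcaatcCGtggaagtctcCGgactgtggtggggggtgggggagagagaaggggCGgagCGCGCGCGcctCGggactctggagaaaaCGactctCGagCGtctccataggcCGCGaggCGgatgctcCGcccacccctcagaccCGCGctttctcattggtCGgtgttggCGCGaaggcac
Rbbp7 (chrX:162760122-162760371, plus strand): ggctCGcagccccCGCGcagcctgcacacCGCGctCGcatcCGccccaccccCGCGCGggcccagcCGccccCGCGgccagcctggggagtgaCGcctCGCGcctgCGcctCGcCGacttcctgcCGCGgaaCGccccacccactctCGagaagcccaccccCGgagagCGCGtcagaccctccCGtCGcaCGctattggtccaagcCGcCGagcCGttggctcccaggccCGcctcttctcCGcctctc
Both windows are denser in CG than those of the scaffolds, with 30 in Rbbp4 and 34 in Rbbp7, counts reached by 5.95% and 3.53% of all windows. The Rbbp4 window holds CACGTG 1 time, and that of Rbbp7 does not. Both hold CCAAT 1 time and GGGCGG 2 times, counted on both strands.

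**Figure D3:**
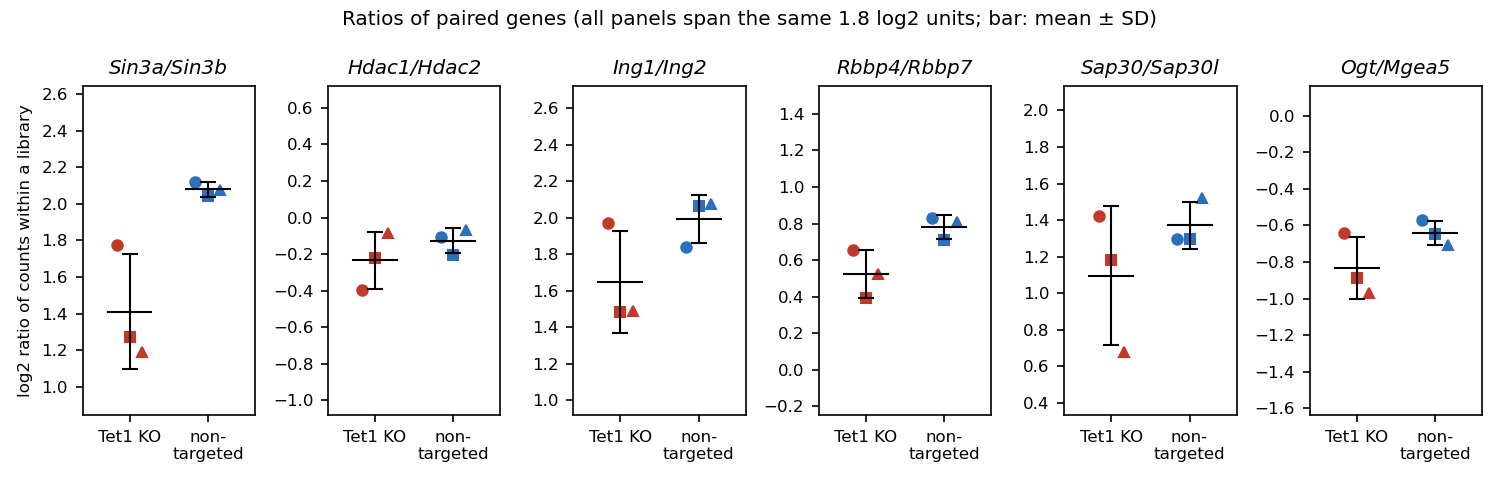
Log2 ratio of the counts of paired genes within each library (vertical axes, each spanning the same range of log2 units), knockout in red and non-targeted in blue; circles, squares and triangles are replicates 1, 2 and 3, with mean ± SD. Sin3a/Sin3b and Rbbp4/Rbbp7 are lower in all 3 knockout clones, and the other 4 ratios overlap. The share without overlap over all gene pairs was not computed.

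Ogt (ENSMUSG00000034160.13, X chromosome, 101640060 to 101684351, plus strand) had 278, 232 and 201 CPM in replicates 1 to 3 of the knockout, beside 284, 266 and 247 CPM in the non-targeted replicates. Replicate 1 of the knockout lay within the non-targeted range and replicates 2 and 3 below it. The log2 fold change was -0.17 ± 0.12 (edgeR adjusted p = 0.421, DESeq2 adjusted p = 0.495). It was -0.06 without knockout replicate 3 and -0.30 without replicate 1, where edgeR called it (adjusted p = 0.0378). Mgea5, the gene of the enzyme that removes the OGT mark, had 434, 429 and 394 CPM against 403 to 423 CPM (log2 fold change 0.02 ± 0.07). There were 0.641, 0.540 and 0.510 Ogt reads per Mgea5 read in the knockout and 0.614 to 0.673 in the non-targeted clones, an overlap (log2 difference -0.19 ± 0.11 SE; exact permutation p = 0.3; adjusted p = 0.4). This difference was -0.12 without knockout replicate 3 and -0.29 without replicate 1.

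Knockout clones differed from each other more than non-targeted clones did. The SD of log2 CPM was larger among the knockout clones for 9 of 10 members (all but Ing1), and this held for 70.0% of all tested genes. It was 0.20 against 0.06 for Sin3a, 0.24 against 0.03 for Hdac2 and 0.017 against 0.015 for Rbbp4. The median of the members against the mean of the non-targeted clones was -0.06, -0.16 and -0.38 on the log2 scale in knockout replicates 1 to 3 and between 0.00 and 0.02 in the non-targeted clones. The fibroblast markers, at 321, 366 and 783 CPM, had the same order over these clones, and their part in the members' values was not tested. Leaving out knockout replicate 1, edgeR called 6 members, with Sin3a, Ing1, Hdac1, Hdac2 and Ogt lower and Rbbp7 higher. In the same fit 29.1% of 15140 genes were called, 14.0% as lower and 15.1% as higher. That comparison rests on clones 30 and 33 alone.

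To compare levels between genes, CPM was divided by the length of annotated exons (GENCODE M21, same genome build). The deposited counts also include intron reads, so these levels are approximate. In the non-targeted clones Rbbp7 had the highest level, 116 ± 4.62 CPM per kilobase of exon (SD, n = 3), followed by Sap30 (67.8 ± 7.34), Rbbp4 (66.2 ± 0.678) and Sin3a (61.2 ± 2.35). Sap30 overlapped Rbbp4 and Sin3a in range. Below them came Hdac1 (54.0 ± 2.12), Hdac2 (45.4 ± 0.975), Ogt (33.1 ± 2.30), Ing1 (19.7 ± 1.25), Sin3b (10.6 ± 0.476) and Ing2 (5.58 ± 0.206), whose ranges did not overlap. In the knockout clones Sin3a stood at 42.2 ± 5.99 CPM per kilobase, overlapping Hdac1 (44.6 ± 2.60) and Hdac2 (40.8 ± 6.78) in range, and Sin3b at 11.6 ± 0.996.

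The wider pathway was described with 6 lists of 104 tested genes. Over them edgeR called 0 genes, and 21 of 104 had an unadjusted p under 0.05, where 24.8% of all genes did. DESeq2 called 2 as higher and 2 as lower, so 4 of 104 were called beside 9.12% of all genes, a smaller share than over the whole table. Of the other SIN3 subunits, DESeq2 called 0 of 16 tested genes, with a list median of -0.15 and 11 of 16 below 0. Arid4a, which encodes a DNA- and chromatin-binding subunit, had 53.5, 41.1 and 40.3 CPM against 55.8 to 68.2 CPM (-0.44 ± 0.14 on the log2 scale, with an adjusted p of 0.0688 in DESeq2). Emsy, a partner of the KDM5A branch of the complex, had -0.22 ± 0.09 (edgeR adjusted p = 0.189). None of 16 DNA-binding recruiters of SIN3 passed either test (median -0.13). The MAX partner Mxd3 had a log2 fold change of -0.60 ± 0.24 and the forkhead factor Foxk1 0.15 ± 0.07 (edgeR adjusted p = 0.183 and 0.235).

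On the OGT side, DESeq2 called 1 of 11 genes of the O-GlcNAc and hexosamine list (median -0.27). Gfpt1, the rate-limiting enzyme that leads glucose into the hexosamine pathway and so to the OGT substrate, was higher, with 55.3, 53.6 and 54.9 CPM against 42.0, 42.6 and 37.6 CPM. The groups were well apart and the knockout clones nearly equal (0.42 ± 0.09 on the log2 scale, with an adjusted p of 0.0143 in DESeq2 and 0.108 in edgeR). Uap1, which makes that substrate in the last step, had 0.33 ± 0.09 (DESeq2 adjusted p = 0.0634) and was also higher in 3 of 3 knockout clones. Gfpt2, the other enzyme of the first step, had 111, 59.2 and 56.7 CPM against 116 to 138 CPM (-0.71 ± 0.25 on the log2 scale, with an adjusted p of 0.0538 in DESeq2), named here after its values were seen. Thus the Gfpt genes differed in sign.

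Among 21 partners of OGT and of its substrate HCF1 (median -0.08), DESeq2 called Trak1 as higher and Rbbp5 as lower. Trak1, a mitochondrial transport adaptor that binds OGT, had 85.3, 75.9 and 81.1 CPM against 56.0 to 59.0 CPM (0.49 ± 0.08 on the log2 scale, with an adjusted p of 0.00151 in DESeq2 and 0.106 in edgeR). Rbbp5, a subunit of the SET1 and MLL histone methyltransferases, had 128, 96.2 and 77.4 CPM against 144 to 151 CPM (-0.55 ± 0.17, with an adjusted p of 0.0401 in DESeq2 and 0.128 in edgeR). Both lay outside the non-targeted range in every knockout clone. The Trak1 call was lost without non-targeted replicate 1, and it held in DESeq2 without any other library.

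The last lists hold partners that share HDAC1, HDAC2, RBBP4 or RBBP7 with SIN3. In the list of other class I deacetylase complexes DESeq2 called 0 of 25 tested genes (median -0.07). Ing5 and Rcor3 had the smallest p there, with log2 fold changes of -0.22 ± 0.08 and 0.55 ± 0.22 (edgeR adjusted p = 0.161 and 0.178). Among 15 partners of RBBP4 and RBBP7 (median -0.07), DESeq2 called Chaf1b, a subunit of the chromatin assembly factor that works with RBBP4, as lower. Chaf1b had 134, 123 and 118 CPM against 153 to 164 CPM (-0.35 ± 0.08, with an adjusted p of 0.0180 in DESeq2 and 0.109 in edgeR). The DESeq2 calls of Gfpt1, Rbbp5 and Chaf1b were lost when any library other than knockout replicate 1 was left out. Hat1, the histone acetyltransferase that pairs with RBBP7, had -0.22 ± 0.08 (edgeR adjusted p = 0.150).

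A different pattern was seen in 3 listed genes of chromosome 6, named after their values were seen: the SIN3 subunits Kdm5a and Fam60a (SINHCAF) and the ING family gene Ing3. Kdm5a, a demethylase of histone H3, had 379.7 CPM in replicate 1 of the knockout but 165 and 149 CPM in the other knockout clones, beside 337 to 380 CPM (379.8 at most) in the non-targeted clones. Fam60a had 258, 117 and 132 CPM against 216 to 242 CPM, and Ing3 had 62.9, 39.2 and 36.9 CPM against 61.4 to 61.7 CPM. In all 3 genes replicate 1 was within or above the non-targeted range and replicates 2 and 3 were far below it. The tested genes around each of them were lower in the same clones. Around Kdm5a, at 120364124 to 120444574, their median was -0.03, -1.05 and -0.97 on the log2 scale in knockout replicates 1 to 3, and around Fam60a, at 148921035 to 148946467, it was 0.04, -1.32 and -0.98. Around Ing3, at 21949571 to 21976038, it was 0.10, -0.59 and -0.58. The shifts around the members were smaller: over the 10 members, the median of the genes around them lay between -0.18 and 0.13 in every knockout clone.

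**Figure D4:**
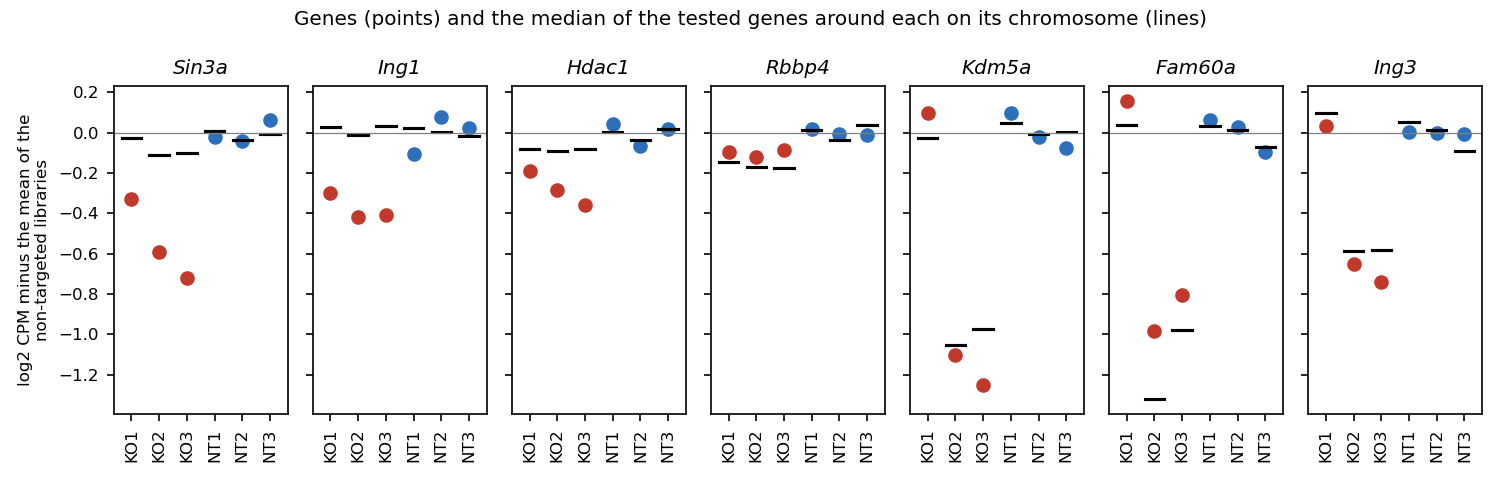
Log2 CPM of 7 genes (points, knockout KO1 to KO3 in red, non-targeted NT1 to NT3 in blue) relative to the mean of the non-targeted libraries, with the median of up to 20 tested genes around each gene on its chromosome (black lines). Sin3a, Ing1 and Hdac1 are below their neighbours in all 3 knockout clones, and Rbbp4 lies with its neighbours. Kdm5a, Fam60a and Ing3 drop together with theirs in KO2 and KO3.

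Genes with the pattern most like that of Sin3a or of Ogt were named by the root mean square difference of log2 CPM, each gene centred on its mean over the 6 libraries, among 9118 genes with at least 10 CPM on average. For Sin3a, whose own log2 CPM had an SD of 0.30, they were Rnaseh2a (difference 0.03), Dcaf4 (0.03), Sik1 (0.03), Arrdc4 (0.04) and Amt (0.04). Rnaseh2a, a ribonuclease H2 subunit, had 76.1, 60.7 and 56.4 CPM across the knockout clones, beside 93.9, 94.1 and 99.0 CPM across the non-targeted ones. For Ogt, with an SD of 0.17, they were Zfp281 (0.02), Cul5, Usp9x, Fxr1 and Terf1 (0.03 each). Zfp281, a zinc finger regulator of pluripotent cells, had 219, 178 and 156 CPM against 192 to 226 CPM, so that, as for Ogt, only knockout replicates 2 and 3 were below the non-targeted range.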

How the data were processed

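The values deposited by the authors are raw counts, whole numbers with no normalization. Per the file headers, they were made with featureCounts 1.6.2, reverse-stranded, over whole gene bodies with introns, with the GENCODE M15 annotation of GRCm38.p5; no option for multi-mapping reads or reads in several genes was set. The submitters' processing notes name HISAT2 2.1.0, featureCounts 1.5.3, DESeq2 1.18.1 and mm10. No member overlaps another gene on its strand. Per the labels' protocols, libraries came from 300 ng of RNA, a stranded mRNA kit and 14 PCR cycles, in the same sequencing batch.

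From these counts, genes were filtered with filterByExpr (minimum count 10, minimum total 15), scaled with TMM and tested with edgeR 4.0.16 (quasi-likelihood test, group as the only term, Benjamini-Hochberg adjustment over all genes, adjusted p of 0.05). DESeq2 1.42.0, limma 3.58.1 (voom), RLE factors, no filter, robust fitting, a replicate block and leaving out each library were alternatives, in R 4.3.3. The SE is the fold change divided by the root of the F statistic. Ratios used a pseudocount of 0.5. The fits were tested on simulated data. Neighbours were 10 tested genes of at least 10 CPM on each side, and near-identical copies were sought with a minimum of 95% identity over 300 bases, both added after the values were seen. The members and lists were chosen with earlier results of these data known. Named genes are all members, the Tet genes, the partner gene of each ratio, list genes called by edgeR or DESeq2, the 2 of each list with the smallest p, and the 5 nearest patterns to Sin3a and to Ogt. Sap25 was listed at 0 and Ing4 had 2 reads, so neither was tested. Hdac1 has no promoter window here.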

Additional observations from a re-analysis of the deposited data

How the results depend on the processing

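Over all genes edgeR called 0, against 1247 in DESeq2, 1 in limma voom, 159 with no filter on low counts and 3 with the replicate block, and from 0 to 4404 when 1 library was left out (4404 without knockout replicate 1, 0 otherwise). DESeq2 gave 4122, 307 and 262 without knockout replicates 1, 2 and 3 and 189, 768 and 127 without non-targeted replicates 1, 2 and 3, an alternative chosen after seeing the data. Of the members, edgeR called 0, DESeq2 2 and edgeR with no filter 1 (Sin3a). With 1 library left out, 0 to 6 members were called in either tool. Of the 104 listed genes edgeR called 0 and DESeq2 4 (Trak1 and Gfpt1 higher, Rbbp5 and Chaf1b lower), and with 1 library left out 0 to 35 in either tool. All counts of 6 and 35 came without knockout replicate 1. The RLE factors and robust fitting changed no call among the members. Over 18 alternatives 9 of 10 members kept their sign, and Ing2 (-0.02) ranged from -0.082 to 0.088 in edgeR and from -0.092 to 0.085 in DESeq2 with 1 library left out, above 0 only without knockout replicate 1. The 6 ratios kept their sign with each library left out and with a pseudocount of 5, which is small beside the counts of these genes. The replicate block cannot change their differences, because each replicate number occurs once in each group. The size of all 6 ratio differences depended on single knockout clones, as given beside those whose groups overlap. For Sin3a/Sin3b it was -0.85 without knockout replicate 1 and -0.56 without replicate 3. For Rbbp4/Rbbp7 it was -0.32 without knockout replicate 1 and -0.19 without replicate 2. The labels give both groups the same replicate numbers, but same-numbered clones did not all deviate together (correlations of 0.458, 0.109 and -0.024). Clones of different number had correlations from -0.464 to 0.459. Deviations were taken from the mean of 3 clones, so these correlations are tied to each other. They cannot decide whether the numbers pair the clones. The replicate block called 0 members. Ing2, with 181 counts in its lowest library, carries the largest relative counting error of the members.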
